A study of Mus musculus with 6 samples.

Results

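The genes described here are 8 dual specificity phosphatases (Dusp1, Dusp4, Dusp5, Dusp6, Dusp8, Dusp10, Dusp14 and Dusp16) and 2 Gadd45 genes (Gadd45a and Gadd45b). They were chosen by name for their known action on mitogen-activated protein kinases (MAPKs), with earlier results of these data known. All 10 are among the 34745 genes of the expression table. Bulk RNA-Seq had been performed on livers of WT C57BL/6J mice that were fasted for 12 hours and then injected with acetaminophen (APAP, 300 mg/kg, 12 hours) or with saline. The labels list 3 livers per group. Counts of 2 APAP libraries (replicates 1 and 3) and of 3 libraries named WT1, WT2 and WT3 were used, the latter read as the saline group because the remaining columns are named for APAP. APAP replicate 2 was not analysed here. The paper's methods describe male mice aged 8 to 10 weeks and a single i.p. dose, so the comparison covers 1 dose and 1 time point. The paper's methods speak of biological repeats for its experiments in general, but the labels do not tie a library to an animal, so p-values are taken to measure only the spread between these libraries.

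MAPKs are kinases of 3 main branches, ERK, JNK and p38, each switched on by phosphorylation of a threonine and a tyrosine. Dual specificity phosphatases remove both phosphates. Many of their genes are themselves transcribed when MAPKs are active, so that they form a negative feedback loop. GADD45 proteins bind kinases upstream of p38 and JNK, where they can activate (MAP3K4) or, for GADD45B, inhibit (MAP2K7). In the liver, sustained JNK phosphorylation is a known step of APAP hepatotoxicity.

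Library totals were 13378445 to 15976339 counts, and a count of 3 was worth 0.176 to 0.269 CPM (counts per 1000000, on library sizes normalized by edgeR's TMM method). This floor covers counting error only. The defining transcript of hepatocytes, Alb, took 6.56% to 11.3% of all counts. Against the description of male mice, the saline libraries held 290 to 914 CPM of Xist and at most 1 count of each of 4 Y-linked genes, whereas the APAP libraries held 0.764 and 1.73 CPM of Xist and the Y-linked genes at 12.7 to 79.0 CPM. By these genes the saline libraries read as female and the APAP libraries as male. Sex and treatment therefore cannot be told apart in any comparison given here, whatever the chromosome of the gene. That WT1 to WT3 are the saline livers of this study rests on their names alone, and every value called saline below depends on it. The neutrophil markers also moved with the groups, with 7 of 9 tested rising and a summed level of 81.1 to 126 CPM with APAP and 5.58 to 8.89 CPM with saline. Ly6g, their defining marker, had only 4 and 8 counts with APAP and 0 in all saline libraries, and did not pass the filter on low counts. None of the 8 hepatocyte markers passed the test, but their median log2 difference was −0.93. For 6 of the 8, both APAP libraries lay below all saline libraries, as for 20.1% of all tested genes. The sum of the 8 markers, most of it Alb, was 66701 and 111342 CPM with APAP and 119701 to 159551 CPM with saline. Apoa1, the only 1 of the 8 with a log2 difference above 0 (0.57), overlapped between the groups. In bulk tissue, fewer cells of a type and less RNA per cell cannot be distinguished. The part of sex, neutrophils or hepatocytes in the results below was not tested.

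Of the 10 members, 5 rose in the APAP livers, none fell, and 5 did not pass the test (edgeR's quasi-likelihood test, Benjamini-Hochberg adjusted p under 0.05 over 13734 tested genes). The risers were Dusp5, Dusp4, Gadd45a, Dusp10 and Gadd45b, in the order of their log2 differences of 5.32, 3.65, 2.31, 2.29 and 1.73. Across all tested genes, 3.70% were called higher and 3.53% lower by the same rule, and scaling to library size only changed the share of higher genes among those called from 51.2% to 77.8%. At the study's threshold (fold change of at least 1.5, unadjusted P under 0.05), the same 5 members were higher, against 12.3% of all tested genes. The 5 risers were also the 5 members whose 2 APAP libraries both lay above all 3 saline libraries, which held for 24.0% of the tested genes. The median log2 difference of the 10 members was 1.38, against 0.03 over all tested genes. Because the members were chosen with earlier results of these data known, these shares and medians describe the list and test nothing. All 10 passed the filter on low counts, and all 10 would have passed it on the saline libraries alone.

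**Figure D1:**
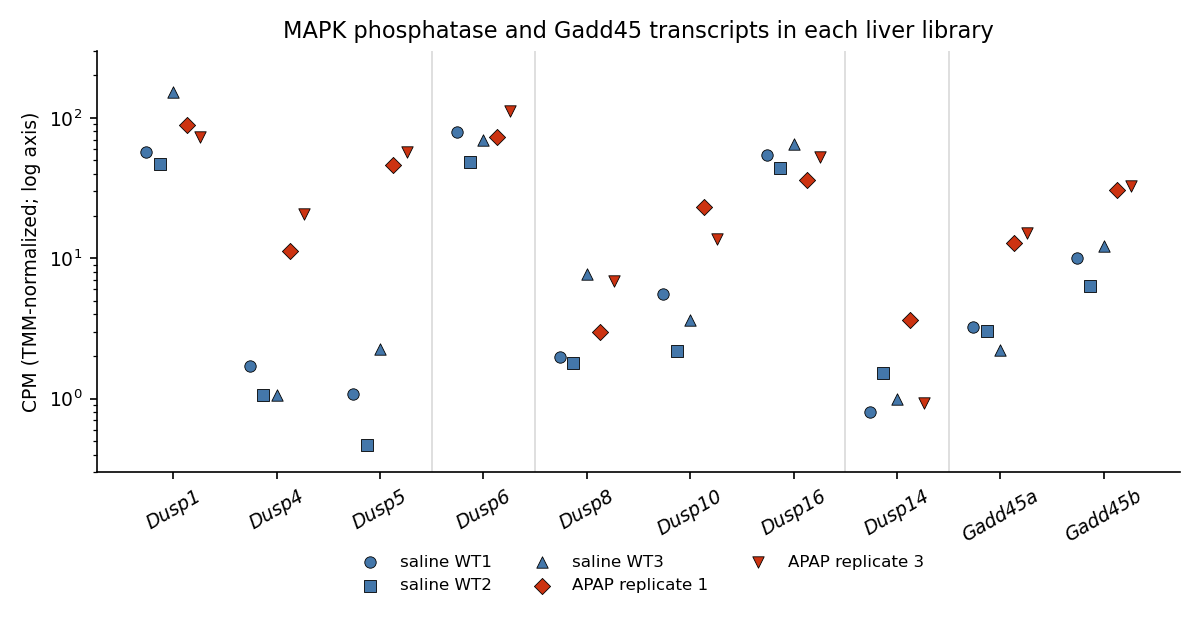
TMM-normalized CPM (log axis) of the 10 members in the 3 saline libraries (blue) and the 2 APAP libraries (red), 1 point per library, with vertical lines between the classes of gene. Dusp4, Dusp5, Dusp10, Gadd45a and Gadd45b lie higher in both APAP libraries than in any saline library, and Dusp1 reaches its highest level, 153 CPM, in saline WT3.

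Sequences upstream of 4 of the 5 risers and of Dusp1, a member that did not pass the test, are shown so that their start regions can be compared. They are the RefSeq promoter sequences of GRCm38.p6, which cover 9 of the 10 members (Dusp4 was not matched). Each is written 5′ to 3′ on the gene's strand and ends before the RefSeq start or, where it comes earlier, before the first base in the window that belongs to an exon of the gene in GENCODE M21. Capitals mark matches, on either strand, to an AP-1 site (TGANTCA), a cAMP response element (TGACGTCA), a CArG box (the sequence bound by serum response factor), a TATA box (TATAAA) or a CCAAT box (CCAAT). The Dusp10 stretch lies inside the gene's span in the table, upstream of a start that RefSeq places within it, and the Dusp1 stretch lies inside the longer span that GENCODE M21 gives that gene, between exons.
Dusp5 (chr19:53528895-53529108, plus strand): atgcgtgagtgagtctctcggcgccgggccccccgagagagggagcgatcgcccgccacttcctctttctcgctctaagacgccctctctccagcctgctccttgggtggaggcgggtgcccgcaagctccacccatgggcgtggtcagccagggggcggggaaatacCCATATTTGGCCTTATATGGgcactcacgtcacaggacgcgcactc
Gadd45a (chr6:67037458-67037657, minus strand): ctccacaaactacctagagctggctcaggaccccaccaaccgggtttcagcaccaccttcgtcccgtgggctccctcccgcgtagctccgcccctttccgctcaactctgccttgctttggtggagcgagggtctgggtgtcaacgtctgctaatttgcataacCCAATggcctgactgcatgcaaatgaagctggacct
Gadd45b (chr10:80929841-80930072, plus strand): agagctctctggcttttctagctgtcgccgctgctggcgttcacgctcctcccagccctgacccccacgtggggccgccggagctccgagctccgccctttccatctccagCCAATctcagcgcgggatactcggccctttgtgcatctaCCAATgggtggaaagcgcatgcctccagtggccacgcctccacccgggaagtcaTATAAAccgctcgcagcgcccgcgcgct
Dusp10 (chr1:184034131-184034380, plus strand): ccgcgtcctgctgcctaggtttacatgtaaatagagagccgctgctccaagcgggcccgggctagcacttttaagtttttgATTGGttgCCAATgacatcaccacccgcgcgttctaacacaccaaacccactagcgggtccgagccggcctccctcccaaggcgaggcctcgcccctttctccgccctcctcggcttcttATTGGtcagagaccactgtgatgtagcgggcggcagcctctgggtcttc
Dusp1 (chr17:26508520-26508722, minus strand): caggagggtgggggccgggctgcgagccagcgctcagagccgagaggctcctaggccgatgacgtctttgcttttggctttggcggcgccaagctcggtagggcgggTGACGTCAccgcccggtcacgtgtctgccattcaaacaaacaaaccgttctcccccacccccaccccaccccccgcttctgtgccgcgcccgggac

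Positions of motifs are counted from the RefSeq start, with −1 as the last base before it. The Dusp5 stretch held 2 adjoining CArG boxes, from −82 to −73 and from −72 to −63. A CArG box occurred in 1.47% of the 32851 RefSeq promoters when the 250 bases before the start were searched. Among the 9 members with a sequence it was found upstream of Dusp5 only. The cAMP response element occurred upstream of Dusp1 (−143 to −136) and in 2 copies upstream of the RefSeq start of Dusp8, against 1.55% of all promoters. The windows of Dusp8 and Dusp14 also lie inside the spans of their genes, and only the first 27 bases of the Dusp14 window precede an exon. Gadd45b held a TATA box (12.4% of all promoters). A CCAAT box was found for 6 of the 9 members, 3 of them risers (33.8% of all promoters). No AP-1 site lay in these windows (6.75% of all promoters). No match overlapped another. These matches describe letters and do not show binding.

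Among the nuclear, inducible phosphatases, Dusp5 and Dusp4 rose and Dusp1 did not pass the test. Dusp5 (ENSMUSG00000034765, chromosome 19 of GRCm38, 53529109 to 53542431), which encodes a nuclear phosphatase selective for ERK, showed the largest difference of the members. Its level was 46.3 and 56.8 CPM in APAP replicates 1 and 3 and 1.08, 0.465 and 2.27 CPM in saline WT1, WT2 and WT3. The groups did not overlap, and the lower APAP library was 20.4 times the highest saline library. The mean was 51.6 ± 7.43 CPM (SD, n = 2) after APAP and 1.27 ± 0.919 CPM (SD, n = 3) after saline, a ratio of 40.6 (log2 difference 5.32, SE 0.53, 95% interval 4.07 to 6.57, adjusted p = 0.00448). Of the 50-base words of its transcript, 20.5% also lie in transcripts of other genes of the annotation. The gene that shares the most is AC137853.2, which is antisense to Dusp5. Whether the counting used strand is not given in the sources used here, so reads of Dusp5 and AC137853.2 cannot be told apart where they overlap.

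Dusp4 (ENSMUSG00000031530, chromosome 8, 34807297 to 34819894) encodes a nuclear phosphatase that acts on ERK and JNK. It was at 11.3 and 20.7 CPM after APAP, against 1.70, 1.06 and 1.07 CPM after saline. Every saline library thus lay below both APAP libraries, in which replicate 3 was 1.84 times replicate 1. The ratio of the means was 12.5 (log2 difference 3.65, SE 0.40, 95% interval 2.71 to 4.59, adjusted p = 0.00542).

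Dusp1 (ENSMUSG00000024190, chromosome 17, 26505590 to 26508519) encodes MKP-1, a nuclear phosphatase with a preference for p38 and JNK. Its level was 88.1 and 72.7 CPM with APAP and 57.4, 47.0 and 153 CPM with saline. The saline libraries lay on both sides of the APAP libraries, with WT3 at 2.94 times the mean of WT1 and WT2. The log2 difference was −0.10 (SE 0.51, adjusted p = 0.932), and its 95% interval, −1.29 to 1.10, does not exclude a doubling or a halving.
Without WT3 the log2 difference of Dusp1 was 0.62 (adjusted p = 0.172).

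**Figure D2:**
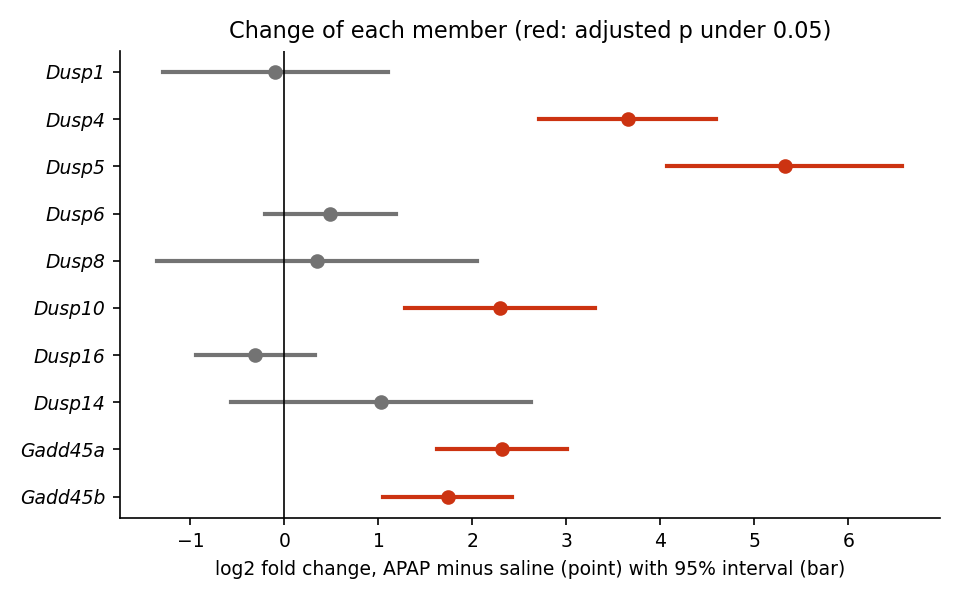
Log2 difference between APAP and saline for each member (point) with its 95% interval (bar), from edgeR's quasi-likelihood fit of 2 APAP and 3 saline libraries, in red where the adjusted p was under 0.05. The intervals of the 5 risers lie above 0, from 1.05 (Gadd45b) upward, and those of Dusp1, Dusp6, Dusp8, Dusp14 and Dusp16 include 0.

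Dusp6 (ENSMUSG00000019960, chromosome 10, 99263231 to 99267488), which encodes the cytoplasmic, ERK-selective phosphatase MKP-3, did not pass the test. It was at 73.5 and 111 CPM after APAP, against 79.6, 48.2 and 69.9 CPM after saline. APAP replicate 3 was above every saline library, while replicate 1 lay among them. The log2 difference was 0.49 (SE 0.30, 95% interval −0.21 to 1.19, adjusted p = 0.363).

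Besides Dusp1, 3 members encode phosphatases that prefer JNK and p38. Of these 3, Dusp10 rose and Dusp8 and Dusp16 did not pass the test. Dusp10 (ENSMUSG00000039384, chromosome 1, 184013302 to 184075636), the gene of MKP-5, was at 23.2 and 13.7 CPM after APAP, against 5.56, 2.19 and 3.61 CPM after saline. The lower APAP library was 2.46 times the highest saline library. The ratio of the means was 4.87 (log2 difference 2.29, SE 0.43, 95% interval 1.28 to 3.31, adjusted p = 0.0284). Its adjusted p was above 0.05 without APAP replicate 1 (0.169), without saline WT2 (0.0901) and without saline WT3 (0.0580), with log2 differences of 1.86, 2.01 and 2.27.
Dusp16, the gene of MKP-7, was at 35.8 and 52.5 CPM after APAP, against 54.6, 44.2 and 65.3 CPM after saline, so that the groups overlapped. Its log2 difference was −0.31 (95% interval −0.94 to 0.32, adjusted p = 0.524). Dusp8 was at 2.997 and 6.86 CPM after APAP, against 1.97, 1.79 and 7.75 CPM after saline. As for Dusp1, WT3 was the highest of the 5 libraries. The log2 difference of Dusp8 was 0.35, with a 95% interval of −1.35 to 2.05 (adjusted p = 0.809). Dusp14, which encodes the small atypical phosphatase MKP-6, was at 3.64 and 0.927 CPM after APAP, against 0.807, 1.53 and 1.002 CPM after saline. It was high in APAP replicate 1 only (log2 difference 1.03, 95% interval −0.57 to 2.62, adjusted p = 0.402).

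Both Gadd45 members rose. Gadd45a (ENSMUSG00000036390, chromosome 6, 67035096 to 67037457), known as a p53 target induced by DNA damage, was at 12.9 and 15.2 CPM after APAP, against 3.23, 3.06 and 2.20 CPM after saline. The spread within each group was small beside the gap between them, as the lower APAP library was 4.01 times the highest saline library. The ratio of the means was 4.97 (log2 difference 2.31, SE 0.29, 95% interval 1.62 to 3.004, adjusted p = 0.00867, and 0.0548 without saline WT2). Of the 50-base words of Gadd45a, 16.1% also lie in transcripts of other genes. An antisense gene, E230016M11Rik, shares the most, and it had 11 and 0 counts with APAP and 10 to 12 counts with saline.
Gadd45b (ENSMUSG00000015312, chromosome 10, 80930091 to 80932204), a gene known to be induced by NF-κB and TGF-β, was at 30.7 and 32.8 CPM after APAP, against 10.04, 6.38 and 12.2 CPM after saline. The 2 APAP libraries were close to each other and 2.51 times or more above the saline libraries. The ratio of the means was 3.33 (log2 difference 1.73, SE 0.29, 95% interval 1.05 to 2.42, adjusted p = 0.0208). Its adjusted p stayed under 0.05 in only 1 of the 5 fits that left out 1 library, that without WT3. In the others it was 0.104 (without APAP replicate 1), 0.0785 (without APAP replicate 3), 0.0563 (without WT1) and 0.0663 (without WT2), with log2 differences of 1.51 to 1.78.

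The third gene of the family, Gadd45g, was at 23.4 and 29.5 CPM after APAP, against 9.32, 10.1 and 65.7 CPM after saline. WT3 was again the highest saline library, and the log2 difference of −0.10 had a 95% interval of −2.07 to 1.86 (adjusted p = 0.955). Gadd45gip1, whose product binds GADD45 proteins and is not of the family, had a log2 difference of −0.28 (adjusted p = 0.561). Among the members, Dusp1, Dusp5 and Dusp8 were at least 2-fold higher in WT3 than in both other saline libraries, as were 481 of the 13734 tested genes. WT1 stood 2-fold above the other saline libraries for none of the members, and so did WT2. WT2 was the lowest saline library for 8 of the 10 members, for Dusp4 with 16 counts in both WT2 and WT3. How often WT2 was the lowest over all tested genes was not counted. For Dusp5, at 7 counts, WT2 was at least 2-fold below both others, as for 2.02% of the tested genes. Cdkn1a, a p53 target, was also highest in WT3 (210 CPM, against 13.9 and 57.3 CPM in the other saline libraries and 172 and 151 CPM with APAP).

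**Figure D3:**
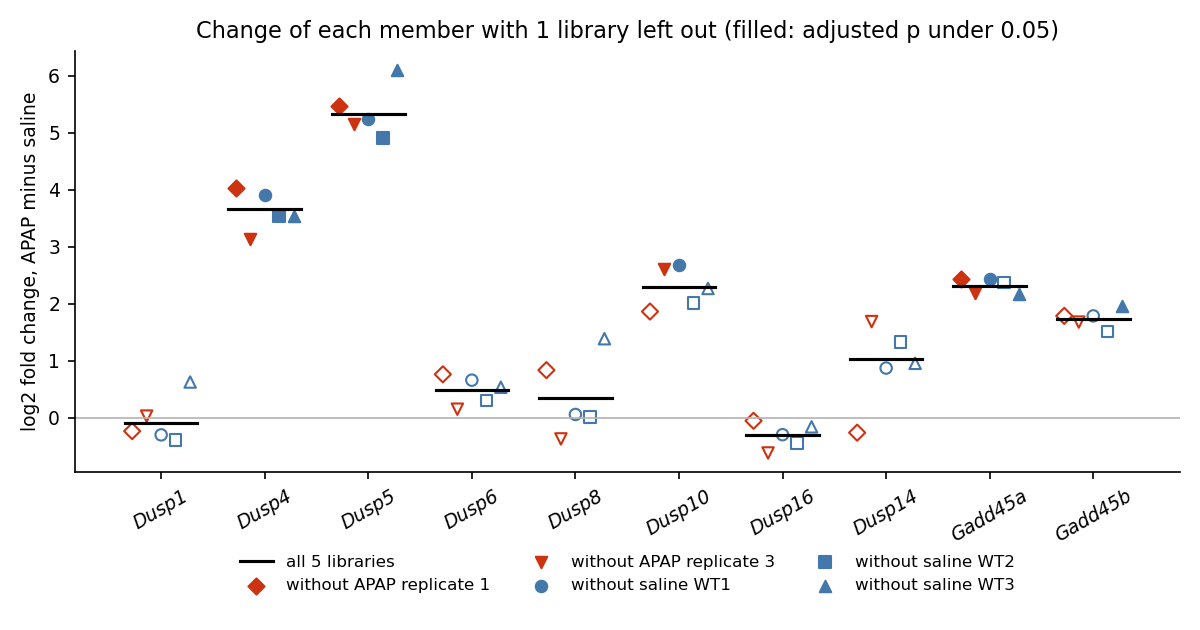
Log2 difference of each member between APAP and saline with all 5 libraries (black line) and with each library left out (symbols, filled where the adjusted p was under 0.05). Dusp4 and Dusp5 kept an adjusted p under 0.05 in all 5 fits, Gadd45a in 4, Dusp10 in 2 and Gadd45b in 1, and Dusp1 moved from −0.10 to 0.62 when WT3 was left out.

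Levels of different genes were compared as CPM per kilobase of exon. In the saline livers Dusp1 (31.9 ± 21.8, SD, n = 3) and Dusp6 (21.04 ± 5.14) were the highest and did not differ beyond their spread. Next came Dusp16 (7.01 ± 1.36) and Gadd45b (6.36 ± 1.97), again within their spread, though Dusp16 was the higher in each saline library. Gadd45a (1.60 ± 0.310) and Dusp10 (1.24 ± 0.555) came after them, also within their spread, with Gadd45a the higher in each saline library. Dusp8, Dusp14, Dusp5 and Dusp4 followed at 0.788, 0.572, 0.514 and 0.467, with SDs of 0.134 to 0.696, and their order was within the spread. In the APAP livers the order began with Dusp1 (29.8 ± 4.05, SD, n = 2), Dusp6 (29.5 ± 8.53), Gadd45b (21.2 ± 0.985) and Dusp5 (20.8 ± 3.003), in which neither the first pair nor the last pair differed beyond its spread. Gadd45a (7.97 ± 0.914), Dusp10 (6.06 ± 2.22), Dusp4 (5.84 ± 2.43) and Dusp16 (5.66 ± 1.51) came next, the last 3 within their spread. Gadd45a was not clearly above Dusp10, which was the higher of the pair in APAP replicate 1 (7.63 against 7.33). Dusp14 and Dusp8 were at 1.17 and 1.01. This order depended on the gene length used. With the longest transcript in place of all exons, Gadd45b was the highest with APAP (43.4 ± 2.02), above Dusp1 (34.8 ± 4.72) and Dusp6 (33.04 ± 9.55), and Dusp16 (8.65 ± 2.30) stood above Dusp10 and Dusp4. Dusp5 was in the 4th place with APAP by both lengths, and among the lowest 4 with saline.
Of the summed per-kilobase level of the 8 Dusp transcripts, Dusp5 made up 20.0% and 21.6% in the APAP libraries and 0.460% to 0.996% in the saline libraries. Dusp1 and Dusp6 together held the larger share in every library, but Dusp1 ranged from 37.1% (WT1) to 61.7% (WT3) among the saline libraries alone. The sum itself was 93.7 and 106 CPM per kilobase with APAP and 57.4, 40.9 and 92.2 with saline, so that WT3 came close to the lower APAP library.

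**Figure D4:**
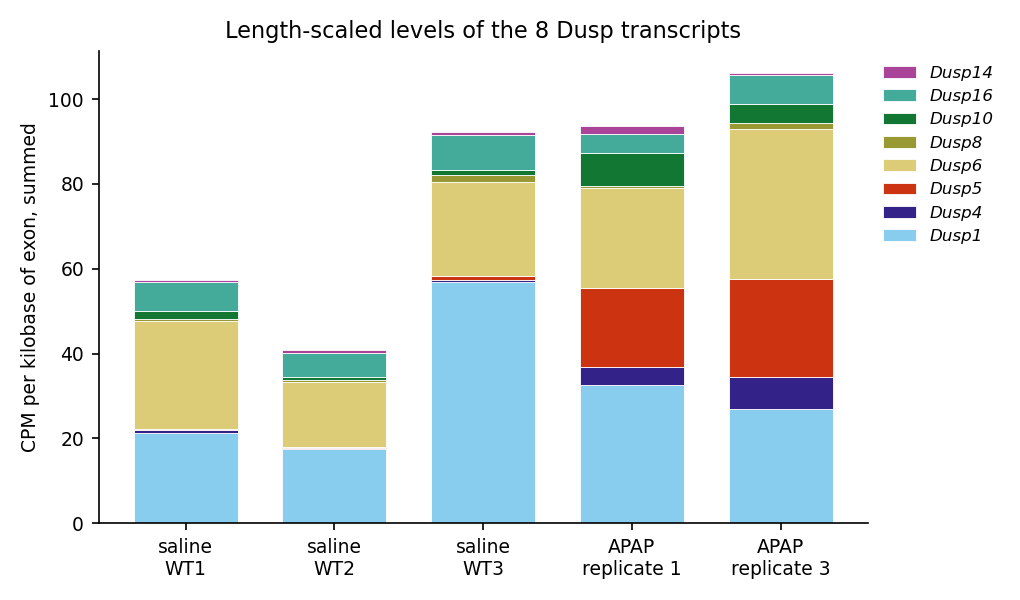
Stacked CPM per kilobase of exon of the 8 Dusp transcripts in each library. Dusp5 (red) accounts for 20.0% and 21.6% of the bar in the APAP libraries and for less than 1% in the saline libraries, and the bar of saline WT3 (92.2) is made tall by Dusp1 (56.9).

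The rest of the pathway was read from gene lists. Among 13 other MAPK phosphatases, 9 were tested. None rose, and Ppm1b, a metal-dependent phosphatase of the PP2C family, fell, from 141, 144 and 145 CPM in the saline libraries to 68.0 and 68.8 CPM with APAP (log2 difference −1.07, SE 0.20, adjusted p = 0.0292). The groups did not overlap for 5 of the 9, all lower with APAP, against 20.1% of all tested genes in that direction, and the list's median log2 difference was −0.59. Dusp2, which encodes another nuclear, inducible phosphatase, was at 1.18 and 1.61 CPM after APAP, against 0, 0.199 and 1.40 CPM after saline (adjusted p = 0.526), and Dusp9 did not pass the filter.

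Few genes of the kinases that the members act on passed the test. Of 9 tested MAP kinase genes only Mapk7, the gene of ERK5, rose (6.93 and 9.33 CPM against 3.32, 2.13 and 3.27 CPM, log2 difference 1.49, adjusted p = 0.0487). Mapk3, the gene of ERK1, had a log2 difference of −0.53, the JNK genes Mapk8 and Mapk9 of 0.06 and 0.22, and the p38α gene Mapk14 of −0.67, none of which passed the test (adjusted p of 0.323 to 0.886). Mapk14 was at 61.2 CPM in APAP replicate 1 and at 24.8 CPM in replicate 3, against 64.8 to 75.2 CPM with saline. The other p38 genes were low, and 2 of them, chosen after their values were seen, passed the study's threshold but not the adjusted one. Mapk13 was at 5.35 and 1.42 CPM after APAP and at 0, 0.332 and 0.468 CPM after saline (log2 difference 3.56, adjusted p = 0.0762), and Mapk11 at 1.35 and 2.91 CPM after APAP and at 0.448, 0.332 and 0.802 CPM after saline (log2 difference 1.99, adjusted p = 0.110). None of the 7 MAP2 kinases and none of the 20 MAP3 kinases passed, with medians of 0.07 and −0.15. Among the most abundant of these were Map2k2, Map2k4 and Taok1, with log2 differences of 0.07, 0.17 and 0.50. Map3k4, whose product binds GADD45 proteins, was at 13.5 and 14.9 CPM after APAP, against 23.8, 20.5 and 11.6 CPM after saline (adjusted p = 0.510).

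Scaffold genes (7 tested, led by Spag9 and Mapk8ip3, with log2 differences of −0.01 and 0.21) had no member that passed. The 9 tested ERK feedback inhibitors that are not phosphatases did not pass either. The most abundant of them, Errfi1, was at 1169 and 1347 CPM after APAP, against 1436 to 2192 CPM after saline (adjusted p = 0.361), and Spred1 had a log2 difference of 0.16. At the study's threshold 2 of the 9 inhibitors were higher and none was lower, against 1696 higher and 1532 lower of the 13734 tested genes. Of 10 kinases activated by MAPKs, 2 rose. Rps6ka3, the gene of RSK2, was at 21.6 and 27.1 CPM with APAP against 3.67, 6.31 and 3.61 CPM with saline (log2 difference 2.42, SE 0.31, adjusted p = 0.00963). Rps6ka4, the gene of MSK2, was at 19.2 and 13.4 CPM against 6.54, 6.38 and 6.15 CPM (log2 difference 1.36, SE 0.25, adjusted p = 0.0282).

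Among the pathway lists, that of transcription factor genes known to respond to MAPK signaling held the most genes that passed, with 10 of 19 tested genes higher, none lower and a median of 2.97. Fosl1 was at 21.3 and 22.8 CPM with APAP and had 0, 0 and 1 counts with saline (adjusted p = 0.00111). Atf3 was at 195 and 110 CPM against 1.33 to 3.67 CPM (log2 difference 6.01, adjusted p = 0.00219). Fosb was at 2.64 and 7.73 CPM against 0 to 0.179 CPM (adjusted p = 0.0179). Jun differed between the APAP libraries, at 88.02 and 555 CPM, and both lay above the 10.8 to 36.0 CPM of the saline libraries (log2 difference 3.95, adjusted p = 0.0379). Of the p53 targets on a list beside Gadd45a, none of 12 passed (median 0.74), and 9 of the 12 had a log2 difference above 0. At the study's threshold 4 of the 12 were higher and 1 was lower, against 1696 higher and 1532 lower of the 13734 tested genes. The most abundant of them, Trp53inp1, was at 129 and 284 CPM after APAP, against 376, 377 and 1003 CPM after saline (adjusted p = 0.166).

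**Figure D5:**
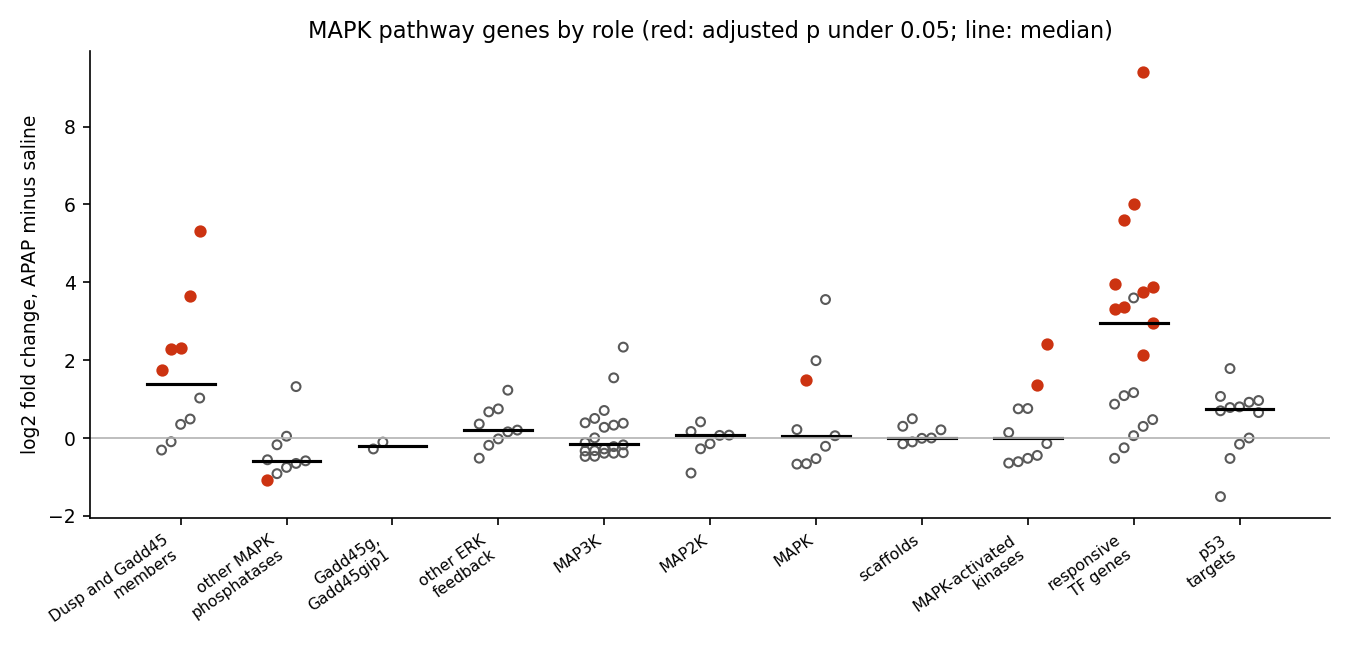
Log2 difference between APAP and saline for every tested gene of each list (points, red where the adjusted p was under 0.05), with the median as a line. The Dusp and Gadd45 members (median 1.38) and the responsive transcription factor genes (median 2.97) lie above the kinase lists, whose medians are −0.15 (MAP3K), 0.07 (MAP2K) and 0.06 (MAPK).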

How the data were processed

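Livers of APAP and saline mice were sequenced on an Illumina NovaSeq platform. Read counts, which the authors obtained with HISAT2, were deposited for each gene beside FPKM from StringTie. The deposited counts are not normalized, and the 5 FPKM columns were not used. The build is GRCm38 (mm10) per the labels, and coordinates are those of the table. HISAT2 is an aligner, and any further counting program, the strand setting and the versions are not given in the sources used here.

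Counts of 2 APAP and 3 saline libraries were tested with edgeR 4.0.16 (R 4.3.3): filterByExpr (minimum count 10, minimum total 15), TMM, glmQLFit and glmQLFTest with Benjamini-Hochberg adjustment over all 13734 tested genes. Standard errors were derived from the F statistic and 95% intervals from its degrees of freedom. The common dispersion was 0.111. The pipeline was tested on simulated data. Exon lengths, overlaps and 50-base words came from GENCODE M21 and promoters from RefSeq (GRCm38.p6), read with Python 3.11.15.

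The members and gene lists were chosen with earlier results of these data known. Named genes beyond the members were every gene of a pathway list that passed the test (the 4 with the largest change where more did), the 2 most abundant where none passed, and Gadd45g, Mapk3, Mapk8, Mapk9, Mapk14 and Map3k4. Some genes that this rule names are not reported here. Dusp2, Dusp9, Cdkn1a as a measure of WT3, and the motifs were chosen after values or sequences had been seen. Alternatives were DESeq2 1.42.0, the exact and the likelihood ratio test of edgeR, other scalings and filters, other thresholds, and each library left out. Monocyte, Kupffer, endothelial, stellate, cholangiocyte and lymphocyte markers were also read.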

Additional observations from a re-analysis of the deposited data

How the results depend on the processing

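Dusp4 rose in all 13 alternatives (log2 difference 3.14 to 4.03, adjusted p under 0.05 in each), and Dusp5 in all 12 that tested it (4.91 to 6.10), since requiring 10 counts per gene in all 5 libraries removed Dusp5 and Dusp14. The 8 settings other than a left-out library changed no call of the members that they tested, and 5 members were called in each but that filter, which left 4. The number of members called was 3 at an adjusted p under 0.01 and 2 to 4 with 1 library left out (2 without WT2, 3 without APAP replicate 1). Where 1 APAP library was left, it was assumed to vary like the saline libraries. The 993 genes called in all became 1835 with the likelihood ratio test, 1776 with the exact test and 2093 with DESeq2, and 165 (without WT2) to 922 with 1 library left out. Directions that turned belonged to members that did not pass. With scaling to library size only, which moved the median of all genes to 0.42, Dusp1 was at 0.29 and Dusp16 at 0.068, both below that median. With 1 library left out, Dusp1 ranged from −0.39 to 0.62, Dusp8 from −0.37 to 1.38 and Dusp14 from −0.26 to 1.68. The share of Dusp5 in the summed Dusp level with APAP, 20.8%, became 18.5% with the longest transcript as gene length. The cause of these shifts was not tested. No paired analysis was possible because the columns WT1 to WT3 could be matched to the saline group but not to its numbered samples, and nothing states that equal numbers mark a pair.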

Other observations

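The marker lists of other cells moved unequally. Of 9 tested gene identifiers of monocyte and recruited macrophage markers, 3 rose (Ccr2, Chil3 and Cd14), with a summed level of 315 and 220 CPM with APAP and 90.8 to 123 CPM with saline. Cholangiocyte markers rose in 2 of 5 (Sox9 and Spp1), at 347 and 356 CPM in sum against 47.1 to 52.3 CPM. Most of that sum was Spp1 (276 and 313 CPM with APAP). Of 9 stellate cell markers 1, Col1a1, rose (367 and 412 CPM in sum against 359 to 400 CPM). None of 8 Kupffer cell markers passed the test (265 and 474 CPM against 279 to 399 CPM), none of 8 sinusoidal endothelial markers (176 and 252 CPM against 171 to 271 CPM) and none of 4 tested lymphocyte markers (24.7 and 28.7 CPM against 16.7 to 20.0 CPM). Most of the lymphocyte sum was Ptprc (19.7 and 23.7 CPM with APAP). The Kupffer cell markers were split. For Marco both APAP libraries (56.7 and 123 CPM) lay above all saline libraries (7.51 to 30.9 CPM). For Vsig4 both APAP libraries (22.9 and 32.1 CPM) lay below all saline libraries (34.4 to 46.2 CPM). Of all tested genes, 24.0% lay above and 20.1% below in this way. The genes named here were chosen after their values were seen. The part of these cells in the levels of Dusp4, Dusp5, Dusp10, Gadd45a and Gadd45b was not tested.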
